A study of Mus musculus with 9 samples.

Results

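The genes described here are 7 genes of phenylalanine and tyrosine breakdown, Hpd, Hgd, Gstz1, Fah, Qdpr, Pcbd1 and Tat, chosen by symbol from the 52405 gene entries of an RNA-seq study of mouse kidney proximal tubule. All 7 symbols were found, and 6 of them passed the filter on low values, which kept a gene with 3 or more of the 9 libraries at 1 FPKM or above, while Tat did not. FPKM are fragment counts scaled to transcript length and library size. The genes were picked with their values in all 9 libraries known, so their levels and differences below are a description. No p-value is printed for any of them, and how many pass the call rule used for all genes is given only as a count beside the share of all genes that pass it.

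The study profiled C57BL/6 mice in 3 groups of 3 libraries. One group was females ovariectomized at postnatal day 21 (D21-ovx), the next was females given a sham operation at the same age (D21-s), and the third was sham-operated adult males (M), whose day of surgery is not given in the sources used here. No transgene or engineered allele is named in any group. Kidney cortex was dissociated, and cells carrying prominin-1 on their surface were kept on a magnetic column, so each library is bulk RNA of a column fraction and not of single cells. The labels call the libraries biological replicates without naming animals, so the p-values below measure the spread between these samples. D21-ovx and M differ in both sex and operation, which cannot be told apart in that comparison.

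Phenylalanine is hydroxylated to tyrosine with tetrahydrobiopterin as cofactor, and the cofactor is restored by the dehydratase of Pcbd1 and the reductase of Qdpr. Tyrosine is then turned to 4-hydroxyphenylpyruvate by an aminotransferase, of which Tat is the liver form. The dioxygenase of Hpd makes homogentisate from it, that of Hgd opens the ring, the isomerase of Gstz1 gives fumarylacetoacetate, and the hydrolase of Fah splits this into fumarate and acetoacetate. The route is best known in liver and also runs in the proximal tubule, where phenylalanine hydroxylation supplies tyrosine to the circulation. In people, loss of FAH causes a hereditary tyrosinaemia that is treated by inhibiting HPD, and loss of HGD causes alkaptonuria.

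The sequences below are the 250 bases before the start of the 4 enzymes that degrade the ring, shown because the transcripts of all 4 were higher in both female groups than in males. They are from RefSeq (GRCm38.p6), which held 8 such windows for the 7 genes. Windows were searched on both strands for TTCNNNGAA (STAT5), AGAACA (bound by androgen and glucocorticoid receptors) and AGGTCA (bound by estrogen and other nuclear receptors). None of these letter strings contains another, and capitals mark a match on either strand. The Hpd window is chr5:123182724-123182973 on the minus strand, Hgd chr16:37579903-37580152 on the plus strand, Gstz1 (the first of its windows) chr12:87146915-87147164 on the plus strand and Fah chr7:84605943-84606192 on the minus strand. The Fah window lies inside the gene span given for Fah below, which reaches 84606722, so it is not upstream of that whole span. The same holds for the second Gstz1 window, which is not shown.
Hpd: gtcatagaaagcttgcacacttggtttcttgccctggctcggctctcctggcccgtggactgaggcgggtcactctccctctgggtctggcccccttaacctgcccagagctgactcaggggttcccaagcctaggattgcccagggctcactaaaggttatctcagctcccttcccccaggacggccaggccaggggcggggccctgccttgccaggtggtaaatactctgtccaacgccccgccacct
Hgd: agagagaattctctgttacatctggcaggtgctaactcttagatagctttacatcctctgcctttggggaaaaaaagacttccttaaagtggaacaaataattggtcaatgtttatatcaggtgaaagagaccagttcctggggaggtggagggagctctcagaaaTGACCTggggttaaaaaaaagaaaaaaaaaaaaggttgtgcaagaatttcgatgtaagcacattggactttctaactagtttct
Gstz1: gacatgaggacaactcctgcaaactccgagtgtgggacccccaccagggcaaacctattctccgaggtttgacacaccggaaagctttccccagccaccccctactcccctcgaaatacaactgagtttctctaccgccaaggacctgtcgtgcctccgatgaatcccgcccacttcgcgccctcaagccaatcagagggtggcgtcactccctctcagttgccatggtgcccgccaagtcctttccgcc
Fah: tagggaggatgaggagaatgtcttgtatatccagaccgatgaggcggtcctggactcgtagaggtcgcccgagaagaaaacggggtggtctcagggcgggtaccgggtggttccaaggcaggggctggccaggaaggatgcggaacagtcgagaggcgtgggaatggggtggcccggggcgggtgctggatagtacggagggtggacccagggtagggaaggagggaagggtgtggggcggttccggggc

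The Hgd window held AGGTCA, read on the other strand as TGACCT, 84 bases before the start. No match to the 3 motifs stood in the windows of Hpd, Fah and Qdpr, in either window of Gstz1, or in that of Tat, which says only that these letters are not there. The Pcbd1 window held AGGTCA 178 bases before the start. Among all 32851 promoter windows of this length, 7.02% held TTCNNNGAA, 16.1% AGAACA and 14.0% AGGTCA. GC content was 62.8% in the Hpd window, 38.8% in that of Hgd, 59.2% in that of Gstz1 and 64.4% in that of Fah, against a median of 52.4% over all windows.

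The libraries had an estimated 21250000 to 28750000 reads, read from the steps in the FPKM of low genes. Markers of the proximal tubule summed to 8458 to 9167 FPKM in D21-ovx, 7740 to 8626 FPKM in D21-s and 6088 to 7270 FPKM in M libraries. Of their 10 genes, 4 were called higher in D21-ovx than in M, beside 5.63% of all tested genes. In D21-s 5 were called higher than in M, beside 4.28%. Slc5a2 and Slc5a12 went the other way without a call, with log2 fold changes of -0.51 and -0.28 for D21-ovx minus M and -0.40 and -0.12 for D21-s minus M. The summed level of distal convoluted tubule markers was 453 to 674 FPKM in D21-ovx, 324 to 664 FPKM in D21-s and 830 to 1153 FPKM in M libraries, and those of the principal cell ran from 116 to 178 FPKM in D21-ovx, from 104 to 147 FPKM in D21-s and from 189 to 260 FPKM in M. Sums of intercalated cell and leukocyte markers were also higher in M without overlap. Those of the thick ascending limb, podocyte and stroma overlapped between M and both female groups, and those of endothelium between M and D21-s. Prom1, the gene of the sorted protein, had 68.5 to 78.5 FPKM in D21-ovx, 76.8 to 128.7 FPKM in D21-s and 39.4 to 54.6 FPKM in M libraries. Each of the 10 marker lists was detected in some library. The hepatocyte list summed to 46.0 to 50.4 FPKM in D21-ovx, 56.5 to 70.7 FPKM in D21-s and 95.01 to 133 FPKM in M. Most of the sum in M was Ttr, which averaged 104 FPKM there and was called lower in both female groups. Alb and Apoa2 of the same list were called higher in both female groups than in M. Tdo2 and Cps1, also listed, stayed under 1 FPKM in every library. In bulk RNA, fewer cells of a type and less RNA per cell cannot be told apart, and the part of the proximal tubule markers in the differences below was not tested. Markers of the other cell types entered a fit as a covariate, and its values are given for Hpd, Hgd, Gstz1 and Fah below.

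Hpd, the dioxygenase that makes homogentisate, was the member with the widest range. Its gene (ENSMUSG00000029445) lies on chromosome 5 at 123171807 to 123182727 on the minus strand of GRCm38. It had 258.33, 253.64 and 269.2 FPKM in the D21-ovx libraries, 162.7, 169.52 and 117.2 FPKM in the D21-s libraries, and 5.55, 4.46 and 3.72 FPKM in the M libraries. All 3 groups were apart, with D21-ovx libraries highest, the D21-s libraries below them and the M libraries far below both. The means were 260.39 ± 7.98 FPKM in D21-ovx, 149.8 ± 28.4 FPKM in D21-s and 4.58 ± 0.921 FPKM in M (SD, n = 3 each).

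On the FPKM scale the D21-ovx mean was 56.9 times and the D21-s mean 32.7 times the M mean, and D21-ovx was 1.74 times D21-s. The log2 fold change of FPKM + 1 was 5.56 ± 0.152 for D21-ovx minus M, 4.75 ± 0.152 for D21-s minus M and 0.81 ± 0.152 for D21-ovx minus D21-s (SE of the fit over all 9 libraries). Ordered from the highest of the 13160 tested genes, Hpd stood at place 3, 5 and 54 in these comparisons, in that order. Among tested genes ranked by level, it took places 324 to 343 in D21-ovx, 501 to 725 in D21-s and 8482 to 9819 in M libraries. Within its group Hpd varied by 3.07% (coefficient of variation) in D21-ovx, 19.0% in D21-s and 20.1% in M.

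The lowest female value, 117.2 FPKM, was in D21-s replicate 3, which also had the highest Prom1 level of any library and the lowest score of markers of other cell types, -0.68. That score is the mean centred log2(FPKM + 1) of 45 tested markers from outside the proximal tubule list. The hepatocyte genes Alb, Apoa2 and Ttr, which differed between the groups in opposite directions, are among them. Without that library, Hpd was 0.65 higher on the log2 scale in D21-ovx than in D21-s. With the score as a covariate, the Hpd differences were 5.70 for D21-ovx minus M, 4.92 for D21-s minus M and 0.78 for D21-ovx minus D21-s. The score did not overlap between the sexes, at 0.23 to 0.66 in M, -0.37 to 0.15 in D21-ovx and -0.68 to 0.16 in D21-s. For Hpd and every gene below, this fit therefore cannot fully separate the score from sex. With the same covariate, D21-ovx minus M was 0.64 for Hgd, 0.69 for Gstz1 and 0.65 for Fah, and D21-s minus M was 0.53, 0.53 and 0.66 for the same genes.

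**Figure D1:**
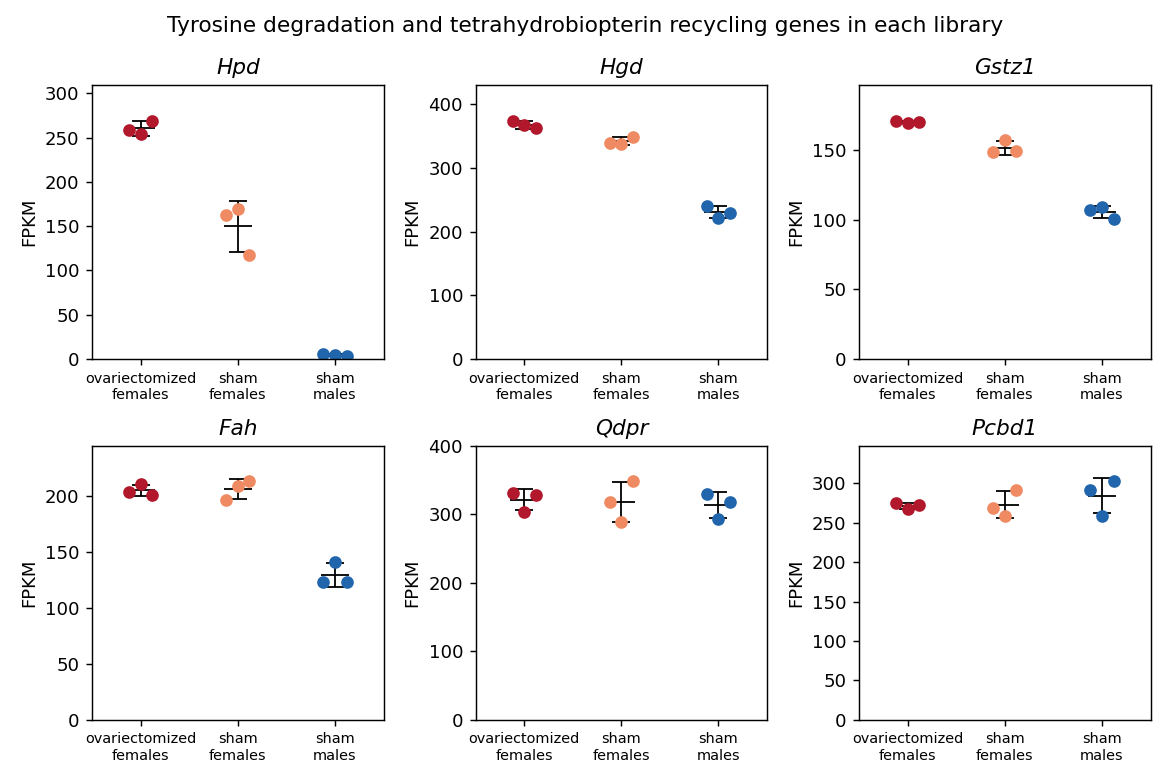
FPKM of the 6 detected genes in each library (points), with group means and SD (bars), for ovariectomized females, sham females and sham males, each n = 3. Hpd lies at 253.64 to 269.2 FPKM in ovariectomized females, at 117.2 to 169.52 FPKM in sham females and at 3.72 to 5.55 FPKM in males, while Qdpr and Pcbd1 overlap in all groups.

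Hgd, which opens the ring of homogentisate (ENSMUSG00000022821, chromosome 16, 37580153 to 37632020, plus strand), had 374.38, 367.06 and 362.37 FPKM in D21-ovx, 338.77, 337.8 and 348.94 FPKM in D21-s and 240.36, 222 and 229.11 FPKM in M. No value of one group fell in the range of another, and the D21-ovx libraries were highest. Its log2 fold change was 0.67 ± 0.0506 for D21-ovx minus M, 0.57 ± 0.0506 for D21-s minus M and 0.11 ± 0.0506 for D21-ovx minus D21-s (SE).

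Gstz1, the isomerase of the next step (ENSMUSG00000021033, chromosome 12, 87147165 to 87164723, plus strand), had 170.98, 169.63 and 169.96 FPKM in D21-ovx, 148.6, 157.39 and 149 FPKM in D21-s and 106.79, 108.96 and 100.65 FPKM in M. The groups again did not overlap, and the D21-ovx libraries differed among themselves by little, with a coefficient of variation of 0.414%. Its log2 fold change was 0.69 ± 0.0533 for D21-ovx minus M, 0.52 ± 0.0533 for D21-s minus M and 0.17 ± 0.0533 for D21-ovx minus D21-s (SE).

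Fah, the hydrolase of the last step (ENSMUSG00000030630, chromosome 7, 84585159 to 84606722, minus strand), had 203.8, 210.27 and 200.59 FPKM in D21-ovx, 196.26, 209.16 and 212.88 FPKM in D21-s and 123.46, 141.29 and 122.98 FPKM in M. Both female groups were above the males, and they overlapped with each other. Its log2 fold change was 0.66 ± 0.0675 for D21-ovx minus M, 0.67 ± 0.0675 for D21-s minus M and -0.01 ± 0.0675 for D21-ovx minus D21-s (SE). The fold of the means over males was 1.60 for Hgd, 1.61 for Gstz1 and 1.59 for Fah in D21-ovx, and 1.48, 1.44 and 1.59 for the same genes in D21-s.

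Qdpr, which reduces the spent form of tetrahydrobiopterin (ENSMUSG00000015806, chromosome 5, 45434021 to 45450236, minus strand), had 331.45, 303.26 and 328.66 FPKM in D21-ovx, 317.78, 288.54 and 347.85 FPKM in D21-s and 329.74, 292.87 and 318.51 FPKM in M. Pcbd1, the dehydratase of the same cofactor cycle (ENSMUSG00000020098, chromosome 10, 61089331 to 61094324, plus strand), had 274.36, 266.73 and 272.03 FPKM in D21-ovx, 268.16, 258.96 and 291.84 FPKM in D21-s and 291.72, 259.01 and 302.28 FPKM in M. Both genes overlapped between every pair of groups. The log2 fold change of Qdpr was 0.03 ± 0.0799 for D21-ovx minus M, 0.02 ± 0.0799 for D21-s minus M and 0.02 ± 0.0799 for D21-ovx minus D21-s. That of Pcbd1 was -0.07 ± 0.0713, -0.06 ± 0.0713 and -0.01 ± 0.0713 in the same comparisons (SE). Tat, the liver aminotransferase (ENSMUSG00000001670, chromosome 8, 109990437 to 109999803, plus strand), was listed at 0 in all 9 libraries, so no fold is given.

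In D21-ovx the FPKM means ran Hgd, Qdpr, Pcbd1, Hpd, Fah and Gstz1 from high to low, and the libraries of Pcbd1 and Hpd overlapped. In D21-s the order was Hgd, Qdpr, Pcbd1, Fah, Gstz1 and Hpd, with overlap between Hgd and Qdpr, between Qdpr and Pcbd1, and between Gstz1 and Hpd. In M it was Qdpr, Pcbd1, Hgd, Fah, Gstz1 and Hpd, with overlap only between Qdpr and Pcbd1, and Hpd lay far below the others.

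**Figure D2:**
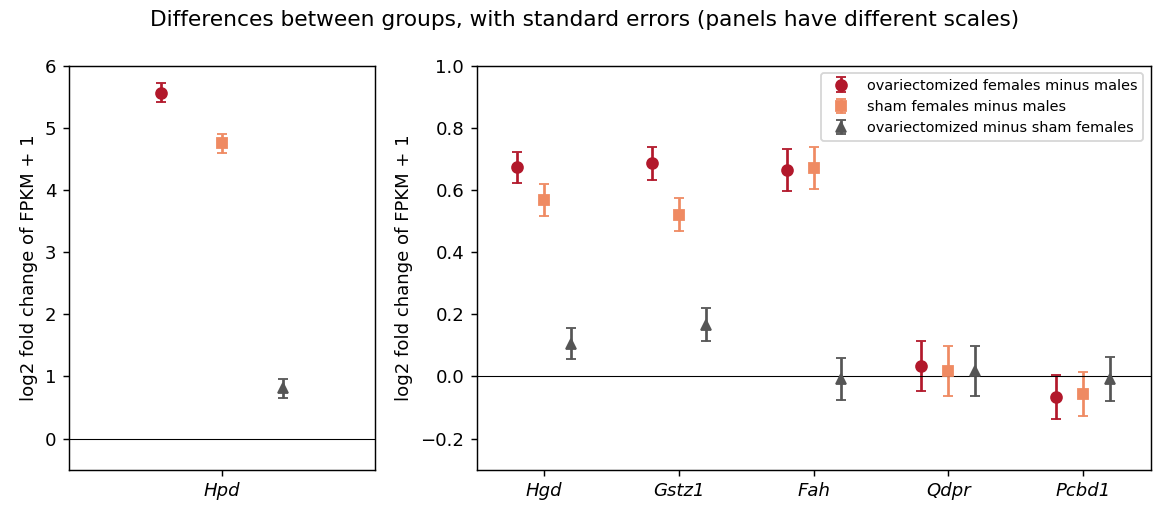
Log2 fold change of FPKM + 1 (y axis) of each detected gene in the 3 comparisons, with the standard error as bars; the panels have different scales. Hpd stands at 5.56 and 4.75 in females against males, the other 3 degradation enzymes between 0.52 and 0.69, and Qdpr and Pcbd1 lie near 0.

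Of the 6 genes with a test, 4 (Hpd, Hgd, Gstz1 and Fah) passed the call rule, a limma adjusted p under 0.05, as higher in D21-ovx than in M, and the same 4 in D21-s against M. Over all 13160 tested genes 11.8% were called for D21-ovx against M, with 5.63% higher and 6.19% lower. For D21-s against M, 9.15% were called, with 4.28% higher and 4.87% lower. The comparisons share the M libraries, and nothing is read from these counts or from those for D21-ovx against D21-s, since the values chose the genes. In D21-ovx against D21-s limma called 0 of the 6, while 2 (Hpd and Gstz1) had an unadjusted p under 0.05. In that comparison 0.00760% of all genes were called, and 6.29% had an unadjusted p under 0.05. The called gene was Pllp, a membrane protein of epithelia, lower in D21-ovx; with the replicate number as a block, 0 genes were called.

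The libraries of 4 of the 6 genes did not overlap between D21-ovx and M, with the D21-ovx libraries above, against 10.9% of all tested genes. The same held for 4 of the 6 between D21-s and M, against 9.66% of all tested genes. Between D21-ovx and D21-s 3 genes (Hpd, Hgd and Gstz1) did not overlap, with D21-ovx above, against 6.76% of all tested genes. The median log2 fold change of the 6 genes was 0.67 for D21-ovx minus M and 0.54 for D21-s minus M, beside -0.09 over all genes in both. For D21-ovx minus D21-s it was 0.06, beside 0.01 over all genes.

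Ratios within a library do not depend on how libraries were scaled to each other. Hpd was 0.708 ± 0.0302 times the FPKM of Hgd in D21-ovx, 0.439 ± 0.0902 times in D21-s and 0.0198 ± 0.00344 times in M (SD, n = 3 each). Of the summed FPKM of Hpd, Hgd, Gstz1 and Fah, Hpd made up 26.0% ± 0.803 in D21-ovx, 17.6% ± 2.98 in D21-s and 0.972% ± 0.178 in M. These shares did not overlap between groups, and the lowest and highest D21-s shares were 14.2% and 19.4%. The enzymes after Hpd kept a narrower ratio to each other. Hgd was 1.80 ± 0.0465 times Fah in D21-ovx, 1.66 ± 0.0584 times in D21-s and 1.79 ± 0.197 times in M, and Gstz1 was 0.831 ± 0.0214 times Fah in D21-ovx, 0.737 ± 0.0318 times in D21-s and 0.818 ± 0.0469 times in M. For both ratios D21-ovx and D21-s did not overlap, with D21-ovx above. The M libraries overlapped both female groups for Hgd over Fah, and for Gstz1 over Fah they overlapped D21-ovx and lay above D21-s.

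Another 50 genes of phenylalanine and tyrosine metabolism, its transport and its known regulators were listed with earlier results of these data known, and 41 of them passed the filter. Of these, limma called 14 in D21-ovx against M, 10 higher and 4 lower, which is 34.1% of the 41 beside 11.8% of all genes. In D21-s against M it called 8, 5 higher and 3 lower, which is 19.5% beside 9.15%. The median log2 fold change of the list was 0.04 for D21-ovx minus M and 0.09 for D21-s minus M. With median-ratio scaling the split was 11 higher and 2 lower for D21-ovx against M, and 8 higher and 2 lower for D21-s against M, and with quantile normalization it was 6 and 4, and 5 and 3. Leaving out single libraries moved these counts. For D21-ovx against M 9 genes were called without M replicate 2, 6 without M replicate 3, 7 without D21-ovx replicate 1 or 2 and 5 without D21-ovx replicate 3. For D21-s against M 14 were called without M replicate 1, 4 without M replicate 2 or 3, 3 without D21-s replicate 2 and 5 without D21-s replicate 3.

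**Figure D3:**
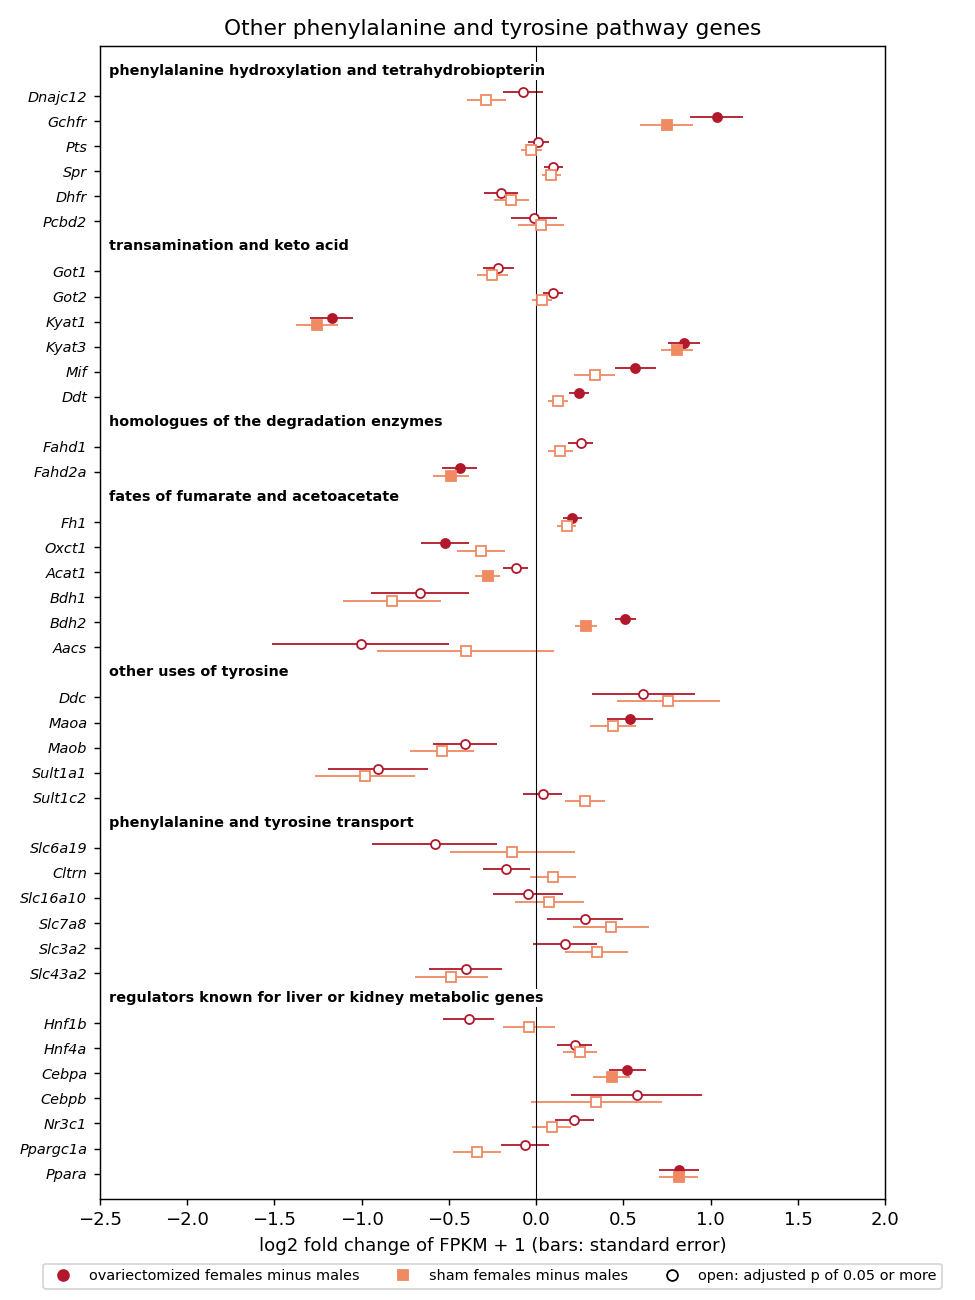
Log2 fold change of FPKM + 1 (x axis) of 38 of the 41 tested genes of the wider pathway, grouped by role, for ovariectomized females minus males (circles) and sham females minus males (squares), with standard errors; filled symbols passed the call rule. Kyat1 lies at -1.17 and -1.26, and Gchfr, Kyat3 and Ppara on the higher side.

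All differences given for these genes are log2 fold changes of FPKM + 1, and the standard errors of the called genes named below ran from 0.0610 for Bdh2 to 0.153 for Gchfr. In the hydroxylation and tetrahydrobiopterin group, 2 of 7 genes were called higher in D21-ovx than in M, beside 5.63% of all genes. In D21-s 1 of 7 was called higher than in M, beside 4.28%. Gchfr, the feedback regulator of the first enzyme of tetrahydrobiopterin synthesis, averaged 30.0 ± 1.49 FPKM in D21-ovx, 24.5 ± 1.93 FPKM in D21-s and 14.4 ± 3.46 FPKM in M (SD, n = 3 each). It rose by 1.03 for D21-ovx minus M (limma adjusted p = 0.00268) and by 0.75 for D21-s minus M (adjusted p = 0.0177); without D21-s replicate 2 that second adjusted p was 0.0736, the highest over its alternatives, and it was 0.0673 with the marker score as a covariate, 0.0558 with only the 2 groups compared and 0.0527 with no filter. Gch1, the enzyme itself, stayed between 0.18 and 0.64 FPKM in every library.

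The transamination and keto acid group holds aminotransferases besides Tat and the tautomerases Mif and Ddt, which are not aminotransferases. Of its 6 tested genes 4 were called in D21-ovx against M (3 higher, 1 lower), beside 11.8% of all genes. In D21-s against M 2 were called (1 higher, 1 lower), beside 9.15%. Of its aminotransferases Kyat1 and Kyat3 were called in both comparisons and Got1 and Got2 in neither. Kyat1 and Kyat3 encode kynurenine aminotransferases, which also accept aromatic amino acids, and they moved in opposite directions. Kyat1 averaged 13.9 ± 2.13 FPKM in D21-ovx, 13.0 ± 1.01 FPKM in D21-s and 32.5 ± 3.49 FPKM in M, and fell by 1.17 for D21-ovx minus M (adjusted p = 0.000345) and by 1.26 for D21-s minus M (adjusted p = 0.000303). Kyat3 averaged 22.2 ± 1.66 FPKM in D21-ovx, 21.6 ± 2.10 FPKM in D21-s and 11.9 ± 0.773 FPKM in M, and rose by 0.85 for D21-ovx minus M (adjusted p = 0.000443) and by 0.81 for D21-s minus M (adjusted p = 0.000775). Both calls stood in all 19 alternatives in both comparisons. Mif, a tautomerase known to act on phenylpyruvates, averaged 442 ± 25.1 FPKM in D21-ovx, 376 ± 11.8 FPKM in D21-s and 301 ± 58.0 FPKM in M. It rose by 0.57 for D21-ovx minus M (adjusted p = 0.0145) and had 0.34 for D21-s minus M (adjusted p = 0.108). Without M replicate 1, Mif was called in D21-s minus M as well (0.48, limma adjusted p = 0.00459). For D21-ovx minus M, the adjusted p ran from 0.0520 to 0.0573 without M replicate 3, D21-ovx replicate 1 or D21-ovx replicate 3. That call was also lost with quantile normalization (0.40, adjusted p = 0.0780) and with the marker score as a covariate (0.50, adjusted p = 0.136, the highest over the alternatives of that comparison). Mif has many near-identical pseudogenes, so its level is uncertain. Got1, the cytosolic aspartate aminotransferase, had -0.22 for D21-ovx minus M (adjusted p = 0.142) and -0.25 for D21-s minus M (adjusted p = 0.110). Got2, the mitochondrial one, had 0.10 for D21-ovx minus M (adjusted p = 0.300) and 0.03 for D21-s minus M (adjusted p = 0.759).

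Among homologues of the degradation enzymes, Hpdl, the paralogue of Hpd, averaged 0.35 FPKM in D21-ovx, 0.61 FPKM in D21-s and 0.54 FPKM in M and was below the filter. Fahd2a, a relative of Fah, averaged 50.1 ± 3.54 FPKM in D21-ovx, 48.6 ± 6.44 FPKM in D21-s and 68.3 ± 4.56 FPKM in M. It fell by 0.44 for D21-ovx minus M (limma adjusted p = 0.0249) and by 0.49 for D21-s minus M (adjusted p = 0.0192), opposite in direction to Fah. The D21-ovx call of Fahd2a was lost without M replicate 3, without D21-ovx replicate 2 or 3, and with no filter. In each of these settings Kyat1 was the only gene of the whole list called lower in D21-ovx than in M. The D21-s call of Fahd2a was lost without M replicate 2 or 3 or D21-s replicate 2, with adjusted p from 0.0571 to 0.0747. It was also lost with the marker score as a covariate (-0.48, adjusted p = 0.230, the highest over its alternatives).

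Fumarate and acetoacetate, the last products, are handled by 6 listed genes. Of these, 3 were called in D21-ovx against M (2 higher, 1 lower), beside 11.8% of all genes. In D21-s against M 2 were called (1 higher, 1 lower), beside 9.15%. Bdh2, a cytosolic hydroxybutyrate dehydrogenase, averaged 248 ± 8.35 FPKM in D21-ovx, 212 ± 9.49 FPKM in D21-s and 174 ± 9.18 FPKM in M. It rose by 0.51 for D21-ovx minus M (limma adjusted p = 0.000743) and by 0.28 for D21-s minus M (adjusted p = 0.0215). Acat1, the mitochondrial acetoacetyl-CoA thiolase, averaged 221 ± 1.64 FPKM in D21-ovx, 197 ± 4.498 FPKM in D21-s and 240 ± 24.6 FPKM in M. It fell by 0.28 for D21-s minus M (adjusted p = 0.0442) and had -0.12 for D21-ovx minus M (adjusted p = 0.311). The D21-s call of Bdh2 was lost without M replicate 2 or 3 or D21-s replicate 2 or 3 (adjusted p from 0.0722 to 0.0816), and that of Acat1 without any library but M replicate 1 (adjusted p from 0.0638 to 0.116). With the marker score as a covariate, D21-s minus M was 0.19 for Bdh2 (adjusted p = 0.417) and -0.21 for Acat1 (adjusted p = 0.482). These were the highest adjusted p over the D21-s alternatives of each. The D21-s call of Bdh2 was also lost with quantile normalization (adjusted p = 0.0601), only the 2 groups compared (adjusted p = 0.0617) or no variance trend (adjusted p = 0.0515). Acat1 was also lost with median-ratio scaling (adjusted p = 0.105), only the 2 groups compared (adjusted p = 0.107), no filter (adjusted p = 0.0914) or no variance trend (adjusted p = 0.0810).

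Of the other uses of tyrosine, 2 of 6 genes were called in D21-ovx against M, beside 11.8% of all genes. In D21-s against M 0 of 6 were called, beside 9.15%, and 5 had an unadjusted p under 0.05, beside 26.6%. Maoa, a monoamine oxidase, averaged 8.54 ± 0.674 FPKM in D21-ovx, 7.92 ± 0.618 FPKM in D21-s and 5.63 ± 1.10 FPKM in M, and rose by 0.54 for D21-ovx minus M (adjusted p = 0.0298). The Maoa call was lost without M replicate 2 or 3 or any D21-ovx library (adjusted p from 0.0561 to 0.0993), with no filter (adjusted p = 0.0706), with only the 2 groups compared (adjusted p = 0.0569) and with the marker score as a covariate (0.39, adjusted p = 0.275, the highest over its alternatives). Ddc, which makes dopamine, had 0.61 for D21-ovx minus M (adjusted p = 0.206) and 0.76 for D21-s minus M (adjusted p = 0.142). Th and Dbh, of catecholamine synthesis, were listed at 0 in every library.

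Transporters of phenylalanine and tyrosine gave 0 calls of 6 in both comparisons, beside 11.8% of all genes for D21-ovx and 9.15% for D21-s. At an unadjusted p under 0.05 there were 0 in D21-ovx against M, beside 28.6% of all tested genes, and 1 in D21-s against M, beside 26.6%. Slc6a19, the apical neutral amino acid transporter, averaged 135 ± 46.5 FPKM in D21-ovx, 183 ± 61.4 FPKM in D21-s and 208 ± 99.2 FPKM in M, and the libraries overlapped. Of 8 regulators tested, 2 were called higher in both comparisons, beside 5.63% of all genes for D21-ovx and 4.28% for D21-s. Ppara, a fatty acid receptor, averaged 30.3 ± 3.06 FPKM in D21-ovx, 30.1 ± 1.89 FPKM in D21-s and 16.8 ± 2.54 FPKM in M, and rose by 0.82 for D21-ovx minus M (adjusted p = 0.00185) and by 0.82 for D21-s minus M (adjusted p = 0.00252). With the marker score as a covariate the second adjusted p was 0.0938, the highest over its alternatives. Cebpa, a liver-enriched factor, averaged 21.7 ± 1.14 FPKM in D21-ovx, 20.4 ± 2.98 FPKM in D21-s and 14.8 ± 0.770 FPKM in M. It rose by 0.52 for D21-ovx minus M (adjusted p = 0.0131) and by 0.43 for D21-s minus M (adjusted p = 0.0352). The first Cebpa call was lost without M replicate 3 or D21-ovx replicate 3 (adjusted p 0.0510 and 0.0560), and the second without any of 7 libraries (adjusted p from 0.0510 to 0.127), the exceptions being M replicate 1 and D21-s replicate 1. With the marker score as a covariate Cebpa was at 0.33 for D21-ovx minus M (adjusted p = 0.157) and at 0.20 for D21-s minus M (adjusted p = 0.592), the highest adjusted p over the alternatives of each. The D21-s call of Cebpa was also lost with no filter (adjusted p = 0.0780) and with only the 2 groups compared (adjusted p = 0.0819). Hnf4a, whose protein drives liver and proximal tubule genes, was not called. Its difference was 0.22 for D21-ovx minus M (adjusted p = 0.185) and 0.25 for D21-s minus M (adjusted p = 0.150).

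In D21-ovx against D21-s limma called 0 of the 41 genes, and 3 had an unadjusted p under 0.05, beside 6.29% of all tested genes. Got1 had 0.03, Got2 0.06, Mif 0.23, Ddc -0.14, Slc6a19 -0.44 and Hnf4a -0.03 as the log2 fold change in that comparison. For each of these 6 genes the D21-ovx and D21-s values were not told apart by the test, though those of Mif did not overlap. Of the 41 genes, 7 did not overlap with D21-ovx above, Mif and Bdh2 among them, beside 6.76% of all tested genes. Another 2 did not overlap with D21-ovx below.

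To place Hpd in its genome neighbourhood, the nearest 5 tested protein-coding genes on each side were compared. Of these 10, limma called 1 (Psmd9) in each comparison with males, which is 10% beside 11.8% of all genes for D21-ovx and 9.15% for D21-s. In D21-ovx against D21-s it called 0, with 1 (Psmd9) at an unadjusted p under 0.05, beside 6.29% of all tested genes. Psmd9, a proteasome assembly factor (ENSMUSG00000029440, chromosome 5, 123169413 to 123250131, plus strand), spans Hpd on the opposite strand. Psmd9 averaged 33.7 ± 2.72 FPKM in D21-ovx, 27.6 ± 1.66 FPKM in D21-s and 21.2 ± 1.26 FPKM in M, and rose by 0.64 for D21-ovx minus M (adjusted p = 0.00118) and by 0.36 for D21-s minus M (adjusted p = 0.0274). The D21-s call was lost without any 1 of the M or D21-s libraries (adjusted p from 0.0509 to 0.0709), with no filter (adjusted p = 0.0527) and with only the 2 groups compared (adjusted p = 0.0507). The 2128 exonic bases of Hpd and the 7248 of Psmd9 share 0 bases in the annotation. The library kit keeps the strand of the RNA, and whether the counting used it is not given in the sources used here, so reads of introns from one gene within the other cannot be told apart. Setd1b, a histone methyltransferase gene and the nearest tested gene on the lower-coordinate side, averaged 3.11 FPKM in D21-ovx, 3.25 FPKM in D21-s and 3.19 FPKM in M and was not called, at -0.03 for D21-ovx minus M (adjusted p = 0.890) and 0.02 for D21-s minus M (adjusted p = 0.927).

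**Figure D4:**
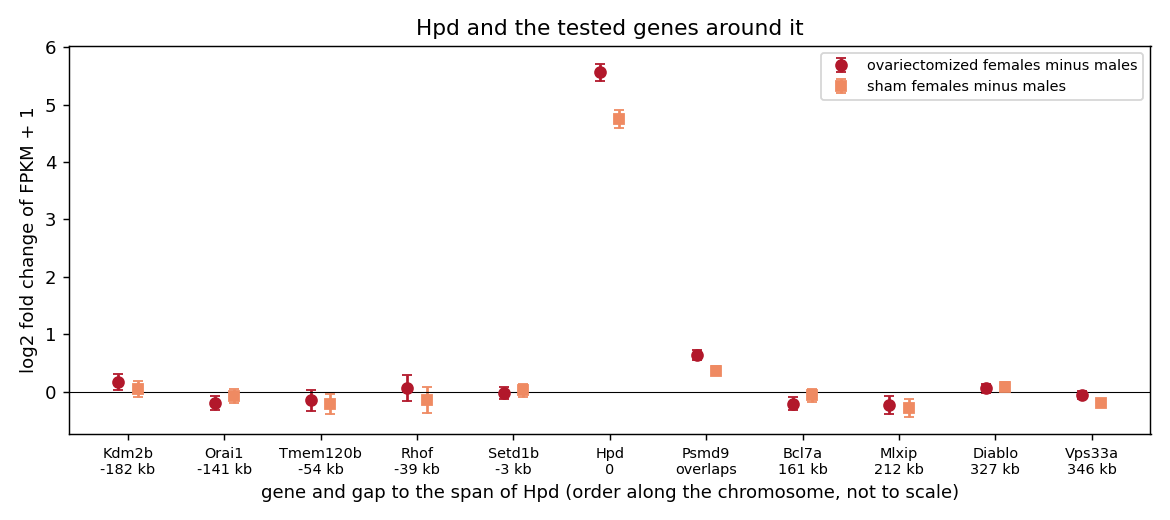
Log2 fold change of FPKM + 1 (y axis, bars are standard errors) of Hpd and the 10 nearest tested protein-coding genes in chromosome order, for ovariectomized females minus males and sham females minus males. Hpd stands at 5.56 and 4.75, Psmd9 at 0.64 and 0.36, and the other genes lie between -0.28 and 0.16.

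The 5 genes whose profile over the 9 libraries lay closest to that of Hpd were Xist, Prlr, Bhmt, Rdh16f2 and Serpina1a, by the root mean square difference of centred log2(FPKM + 1), which was 0.365, 0.450, 0.686, 0.769 and 0.835 in that order. Xist, the RNA of the inactive X chromosome, averaged 39.4 FPKM in D21-ovx, 36.3 FPKM in D21-s and 0.0167 FPKM in M. Prlr, the prolactin receptor gene, averaged 70.6 FPKM in D21-ovx, 75.5 FPKM in D21-s and 0.917 FPKM in M. Rdh16f2, a retinol dehydrogenase family gene, averaged 426 FPKM in D21-ovx, 443 FPKM in D21-s and 20.1 FPKM in M. For these 3 genes the D21-ovx and D21-s libraries overlapped, which those of Hpd did not. Bhmt, the betaine-homocysteine methyltransferase, averaged 26.6 ± 3.40 FPKM in D21-ovx, 14.6 ± 0.799 FPKM in D21-s and 0.52 ± 0.131 FPKM in M. Serpina1a, an antitrypsin gene, averaged 26.9 ± 7.26 FPKM in D21-ovx, 8.09 ± 3.34 FPKM in D21-s and 0.233 ± 0.202 FPKM in M. In both the D21-ovx libraries lay above the D21-s libraries without overlap, as in Hpd, with ratios of the means of 1.83 and 3.33. Rdh16f2 and Serpina1a have near-identical relatives, so their levels are uncertain. With log2(FPKM + 0.1), 2 of the 5 genes, Bhmt and Prlr, remained among the closest 5. Xist, the closest with log2(FPKM + 1), was no longer among them, so the choice depends on the pseudocount.

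**Figure D5:**
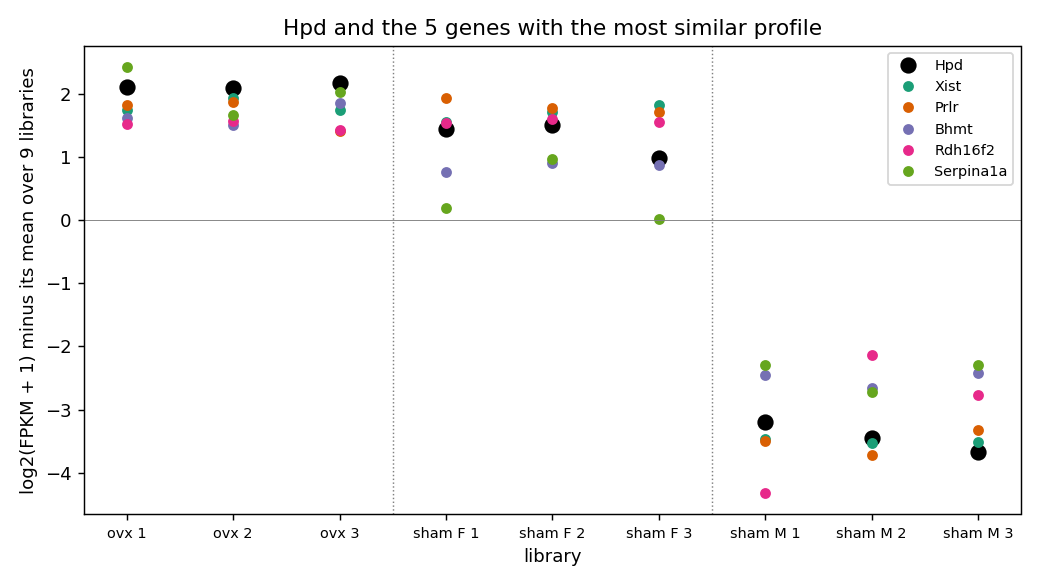
Log2(FPKM + 1) minus the gene's own mean over the 9 libraries (y axis) for Hpd (black) and the 5 most similar genes, per library (x axis); dotted lines separate ovariectomized females, sham females and sham males. All 6 genes lie above 0 in female libraries and below it in male libraries.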

How the data were processed

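Prominin-1-positive cells of mouse kidney cortex were sequenced with a directional kit in 9 libraries, 3 each of ovariectomized females, sham females and sham males. The authors deposited FPKM for 52405 gene entries with STAR 2.6.0c and RSEM, per the submitters' processing notes; the sources used here do not state the RSEM version, genome build, annotation or strand setting. IDs were matched to GENCODE mouse release M21 (GRCm38) for 52093 entries. The 4 unnamed columns at the right of the table were not used. Depth was estimated from the steps of low values, and 64.8% to 71.6% of the low values checked lay on a step of the estimated depth, against 10.8% to 14.5% by chance, so no count test was run.

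From the deposited FPKM, limma 3.58.1 in R 4.3.3 was fitted to log2(FPKM + 1) as a single model of 3 group means with trended variance, for the 13160 genes that reached 1 FPKM in 3 or more libraries. Tests were two-sided, with Benjamini-Hochberg adjustment over all tested genes and calls at an adjusted p under 0.05. Fold changes on this scale understate those of low genes. The code was tested on simulated data. Alternatives were another pseudocount (0.1), filters, scalings, variance models, sample sets, a replicate block, a covariate of other cell types' markers, and each library left out. The members and lists were chosen with earlier results of these data known. Named genes were the members, a fixed set of pathway genes in every comparison, up to 8 called pathway genes with the largest fold change, the nearest and called neighbours of Hpd, and the 5 most similar genes; 3 listed pathway genes are counted in their lists and otherwise not reported here. Same-numbered D21-ovx and D21-s libraries deviated together (r = 0.347, 0.174 and 0.291 over genes), and the blocked fit is given where it changes a call.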

Additional observations from a re-analysis of the deposited data

How the results depend on the processing

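As a description, since their values chose the members, the 4 calls against males and the absence of calls between D21-ovx and D21-s stood in all 19 alternatives. With log2(FPKM + 0.1) the Hpd difference was 5.82 for D21-ovx minus M and 5.002 for D21-s minus M, and 2 of the 5 genes most like Hpd remained. Leaving out single libraries gave 5.45 to 5.69, 4.64 to 4.92 and, for D21-ovx minus D21-s, 0.65 to 0.91 for Hpd. All genes called for D21-s against M numbered 739 with no filter, 722 with only the 2 groups compared and 352 with the marker covariate, and 570 to 1635 without single libraries. For D21-ovx against M they numbered 700 with the covariate and 877 to 1698 without single libraries. For D21-ovx against D21-s they numbered 2 with no filter, 9 with only the 2 groups, 3 without a variance trend, 4 with the covariate and 0 with median-ratio, quantile or rescaled values, and 0 to 11 without single libraries. Other pathway genes called for D21-s against M numbered 5 with no filter, 4 with the 2 groups and 2 with the covariate (3 to 14 without single libraries), and for D21-ovx against M 8, 9 without a trend and 7 with the covariate (5 to 14 without single libraries). Neighbours called for D21-s against M numbered 0 with no filter, 0 with the 2 groups and 0 to 1 without single libraries. The cause of these moves was not tested.

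With the replicate block the count between D21-ovx and D21-s was 0. The Hpd differences were 5.56, 4.75 and 0.81 and no member call changed. Same-numbered D21-s and M libraries had r = -0.125, 0.145 and 0.28 for replicates 1, 2 and 3, so replicates 2 and 3 deviated together, each correlating best with its own number, and replicate 1 did not. For D21-ovx with M r ran from -0.0299 to 0.0749. The numbers were therefore not taken as pairs against males, where the block ended the call of Cebpa (D21-s, adjusted p = 0.0539) and added Ddc (D21-s, adjusted p = 0.0343), and it gave 9 and 14 other pathway genes and 1110 and 1524 genes in all for D21-s and D21-ovx against M.

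Some small uncalled differences changed sign. Between D21-ovx and M, Setd1b was 0.033 with median-ratio scaling, 0.12 with quantile normalization and -0.088 to 0.022 without single libraries. Between D21-s and M, single libraries moved Slc6a19 from -0.40 to 0.22 and Setd1b from -0.051 to 0.069. Between D21-ovx and D21-s, Hnf4a was 0.0075 with the covariate, and single libraries moved Got1 from -0.045 to 0.075, Ddc from -0.36 to 0.16, Hnf4a from -0.12 to 0.035 and Setd1b from -0.095 to 0.024. Median-ratio scaling put 64.6% of all D21-ovx calls and 61.8% of all D21-s calls against M on the higher side, quantile normalization 58.9% and 59.6%, against 47.7% and 46.8% as reported. With 3 libraries a group and FPKM in place of counts, small differences rest on the scaling and on single libraries.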

Other observations

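Of the 5 hepatocyte markers, 3 passed the filter on low values, and they moved in opposite directions (log2 fold changes of FPKM + 1). Alb, the albumin gene, averaged 15.5 ± 0.664 FPKM in D21-ovx, 10.3 ± 2.12 FPKM in D21-s and 3.19 ± 0.867 FPKM in M (SD, n = 3 each), and rose by 2.00 for D21-ovx minus M (limma adjusted p = 0.000117) and by 1.44 for D21-s minus M (adjusted p = 0.00106). Apoa2, an apolipoprotein gene, rose by 0.52 for D21-ovx minus M (adjusted p = 0.0243) and by 0.52 for D21-s minus M (adjusted p = 0.0280). Ttr, the gene of transthyretin, averaged 20.8 ± 0.934 FPKM in D21-ovx, 40.5 ± 7.65 FPKM in D21-s and 104 ± 19.5 FPKM in M, and fell by 2.25 for D21-ovx minus M (adjusted p = 3.03e-05) and by 1.34 for D21-s minus M (adjusted p = 0.000859). For both Alb and Ttr the libraries of the 3 groups did not overlap. In D21-ovx against D21-s limma called 0 of these 3, and 2 (Alb and Ttr) had an unadjusted p under 0.05, beside 6.29% of all tested genes.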
